A study of Mus musculus with 2 samples.

Results

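Cytochrome c oxidase, or complex IV, is the last enzyme of the mitochondrial respiratory chain. This account follows 10 of its nuclear-encoded subunit genes, chosen by symbol out of 27998 genes in the deposited gene table: Cox4i1, Cox5a, Cox5b, Cox6a1, Cox6a2, Cox6b1, Cox6c, Cox7a2, Cox7b and Cox8a. All 10 are present in the table. They were measured in pancreatic islet cells by droplet single-cell RNA sequencing. The HFD library holds islet cells of wild-type C57BL/6J mice, a common inbred strain, pooled from 5 animals that ate a 60% high-fat diet from weaning on for 6 weeks. The chow library holds cells of 4 wild-type animals of the same strain kept on regular chow over the same time. Both sets of islets were picked by hand, held in culture overnight, dispersed with trypsin for 10 minutes and strained through a 35 µm mesh. Each diet has 1 library, and no label ties a cell to a mouse, so nothing here can be set against the spread between animals, diet is not tested, and each statement describes these 2 libraries.

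The members were chosen for the values they have here, namely the level of the muscle isoform Cox6a2 against its partner Cox6a1 and the difference between HFD and chow by subunit. Those values are given as a description. Cells were assigned by raw counts of unique molecular identifiers (UMIs, 1 per captured RNA molecule). A cell was a beta cell where Ins1 and Ins2, the mouse insulin genes, made up at least 20% of its UMIs. Of the other cells, those with at least 5% glucagon (Gcg) UMIs were alpha cells, then those with at least 1% somatostatin (Sst) UMIs delta cells, then those with at least 15% pancreatic polypeptide (Ppy) UMIs PP cells. These limits gave 2968 beta, 374 alpha, 370 delta and 154 PP cells in the HFD library, with 334 cells that met no limit. The chow library held 4372 beta, 740 alpha, 447 delta and 199 PP cells, with 351 cells that met no limit.

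Complex IV takes electrons from cytochrome c and passes them to oxygen, and it pumps protons as it does so. Its catalytic core is encoded by mitochondrial DNA, and the nuclear-encoded subunits around that core stabilise it and tune its activity. Several of these subunits exist as isoforms, with one form found in most tissues and another in heart and skeletal muscle. In beta cells the ATP made with this respiratory chain closes potassium channels at the cell surface, which couples glucose to insulin release.

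Cox6a1 and Cox6a2 are such a pair. They encode the widespread and the heart and muscle form of subunit 6a, which sits in the inner membrane. Their coding sequences show how far the isoforms have diverged, which bears on whether reads of one can be counted for the other. In the GENCODE M21 transcripts (GRCm38) the coding sequence is 336 bases long for Cox6a1, on the minus strand of chromosome 5, and 291 bases long for Cox6a2, on the minus strand of chromosome 7. Of 290 aligned bases, 188 were the same, or 64.8%. A stretch of 120 bases is printed, from base 205 to 324 of the Cox6a1 coding sequence and from base 160 to 279 of that of Cox6a2, with the 31 differing bases in capitals.
Cox6a1: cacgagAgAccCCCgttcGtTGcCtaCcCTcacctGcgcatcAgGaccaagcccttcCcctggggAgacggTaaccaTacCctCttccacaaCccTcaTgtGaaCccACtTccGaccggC
Cox6a2: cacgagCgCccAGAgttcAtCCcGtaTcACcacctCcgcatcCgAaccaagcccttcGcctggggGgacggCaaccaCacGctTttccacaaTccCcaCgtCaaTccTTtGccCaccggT
Differences lie all along this stretch. At the 3′ end, which these libraries count, the last 300 transcript bases of Cox6a2 had no match of at least 100 bases at 95% identity in the transcripts of any other gene. Cox6a1 and Cox6c had 1 such match each, to genes outside the deposited gene table. Cox5a had 2, of which 1, the predicted gene Gm26631, is in the table with 35 UMIs in the HFD library and 44 in the chow library, so a small part of the Cox5a reads may have been counted elsewhere. The other 6 members had no match.

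Promoters of these genes are shown because the members were lower together in the beta cells of one library. The RefSeq table of promoters (GRCm38.p6, 250 bases before to 50 bases after the start of a gene) held 7 of the 10 members. Cox4i1, Cox6a2 and Cox6c were not in it. Both strands were searched for the exact letters of motifs of 4 factors linked to respiratory genes: NRF1 (GCGCA, any base, then GCGC), GABPA (CCGGAAG), YY1 (AAGATGGC) and CREB (TGACGTCA). The NRF1 letters were found in 1 of the 7, the Cox6a1 promoter, against 4.60% of all 32851 promoters. The GABPA letters were found in 3 of the 7, those of Cox6a1, Cox6b1 and Cox8a, against 8.86% of all. The YY1 and CREB letters, present in 2.75% and 1.79% of all promoters, were in none of the 7. The Cox6a1 and Cox8a promoters are printed 5′ to 3′ on the strand of the gene, with NRF1 and GABPA matches in capitals.
Cox6a1, chr5:115348909-115349208, minus strand: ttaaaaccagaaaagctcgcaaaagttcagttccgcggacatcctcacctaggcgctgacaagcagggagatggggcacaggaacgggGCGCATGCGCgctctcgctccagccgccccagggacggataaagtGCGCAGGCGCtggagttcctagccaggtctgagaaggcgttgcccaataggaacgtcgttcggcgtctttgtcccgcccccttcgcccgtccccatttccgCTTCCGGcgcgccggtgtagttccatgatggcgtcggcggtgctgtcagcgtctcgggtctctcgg
Cox8a, chr19:7217567-7217866, minus strand: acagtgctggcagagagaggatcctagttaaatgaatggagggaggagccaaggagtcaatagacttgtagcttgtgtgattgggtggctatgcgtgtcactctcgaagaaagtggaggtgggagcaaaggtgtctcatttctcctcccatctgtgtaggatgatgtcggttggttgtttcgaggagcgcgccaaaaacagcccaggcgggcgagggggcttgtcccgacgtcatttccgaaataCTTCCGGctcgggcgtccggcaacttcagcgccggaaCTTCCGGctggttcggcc
In the Cox6a1 window the capitals mark 2 NRF1 matches and, nearer the start, 1 GABPA match on the opposite strand. In the Cox8a window they mark 2 GABPA matches, both on the opposite strand. All 7 of these members were lower in HFD beta cells, as described next. Of them, Cox5a, Cox5b, Cox7a2 and Cox7b hold none of these letters in this window. Whether the letters have a part in the difference was not tested.

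The HFD library held 4539 barcodes and 68544729 UMIs, and the chow library 6509 barcodes and 89292222 UMIs. After removal of low-quality barcodes and likely doublets, 4200 HFD and 6109 chow cells were kept, and 45 barcode sequences occur in both libraries. Beta cells had a median of 16758.5 UMIs in the HFD library and 14653 in the chow library. Insulin UMIs made up a median of 52.5% of a beta cell in the HFD library and 52.6% in the chow library, and the 8 beta cell markers were all detected in both. Among markers of other cells, the acinar list (5 of 5 detected in both) summed to 4.55 counts per 1000000 UMIs (CPM) in HFD and 17.0 CPM in chow beta cells, the ductal list (4 of 4) to 16.8 CPM in HFD and 86.5 CPM in chow, and the alpha list (6 of 6) to 1153 CPM in HFD and 1663 CPM in chow. The ductal sum was nearly all Spp1, with 16.2 CPM in HFD and 86.1 CPM in chow, and the alpha sum mostly Gcg and Ttr. Sums higher in HFD included those of the PP list (3 of 3), 4780 CPM in HFD and 3518 CPM in chow, the macrophage list (6 of 6), 71.6 CPM in HFD and 44.2 CPM in chow, and the fibroblast and pericyte list (6 of 6), 6.72 CPM in HFD and 1.49 CPM in chow beta cells. Also higher in HFD was the delta list (5 of 5), with 469 CPM in HFD and 382 CPM in chow. The endothelial list (7 of 7) had 26.8 CPM in HFD and 21.8 CPM in chow. The Schwann list (3 of 3) had 9.30 CPM in HFD and 6.30 CPM in chow. Muscle lists are given below. The part of these RNAs in the values below was not tested. Levels below are in CPM of the summed cells of a class, with exact Poisson 95% intervals that cover counting error only. Since each UMI stands for 1 captured 3′ end, a count does not grow with the length of the RNA.

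The muscle isoform Cox6a2 was found in beta cells at a level below that of Cox6a1 and was far lower in the HFD library. In beta cells Cox6a2 had 694 UMIs in the HFD library, or 13.9 CPM (12.9 to 14.99), and 3492 UMIs in the chow library, or 51.9 CPM (50.2 to 53.7). The HFD level was 3.73-fold lower than the chow level. Its partner Cox6a1 had 11578 UMIs in HFD beta cells, or 232 CPM (228 to 236), and 21946 UMIs in chow beta cells, or 326 CPM (322 to 331), which is 1.41-fold lower in HFD. Both isoforms were therefore lower in the HFD library, Cox6a2 by the greater factor. Of the UMIs of the pair, Cox6a2 took 5.66% in HFD beta cells (Clopper-Pearson 95% interval 5.25 to 6.08%) and 13.7% in chow beta cells (13.3 to 14.2%). With each cell thinned to 4000 UMIs the shares were 4.78% in HFD and 12.9% in chow.

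**Figure D1:**
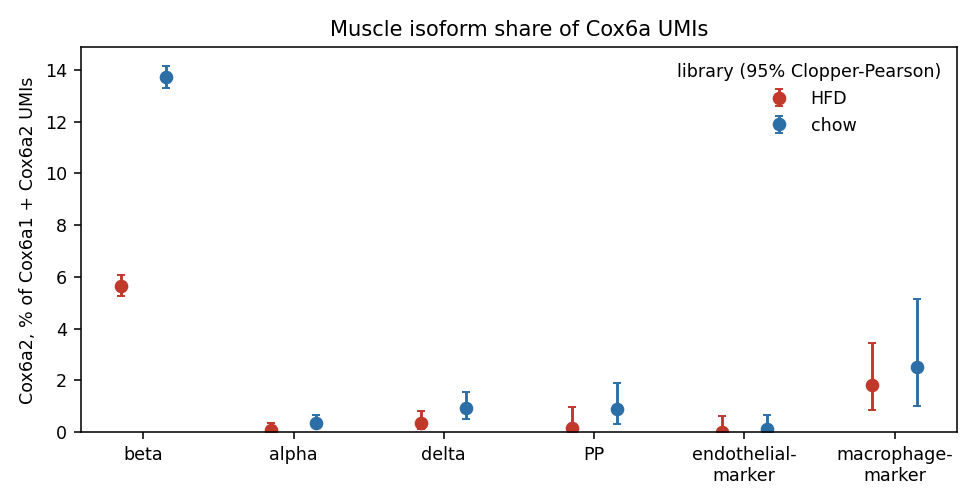
Share of Cox6a2 in the summed Cox6a1 and Cox6a2 UMIs, in percent, for 6 cell classes in the HFD and the chow library; points are shares of summed UMIs and bars are exact Clopper-Pearson 95% intervals. Beta cells stand at 5.66% in the HFD and 13.7% in the chow library, while alpha, delta, PP and endothelial-marker cells stay below 1% in both.

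In alpha, delta and PP cells Cox6a2 was close to absent, whereas Cox6a1 had 229 CPM in chow PP cells, the lowest of these sums, and 507 CPM in HFD alpha cells, the highest. Alpha cells held 2 Cox6a2 UMIs in the HFD library and 12 in the chow library, beside 2120 UMIs of Cox6a1 in HFD and 3179 in chow. Delta cells held 5 in HFD and 14 in chow, and PP cells 1 in HFD and 6 in chow. These sums are too small for a ratio between diets. Per 1000000 insulin UMIs caught in the same cells, Cox6a2 stood at 25.7 (3.11 to 92.7) in HFD alpha cells and 21.9 (0.553 to 122) in HFD PP cells, beside 26.0 (24.1 to 28.0) in HFD beta cells. In the chow library the same quantity was 78.6 (40.6 to 137) in alpha and 74.3 (27.3 to 162) in PP cells, beside 98.8 (95.5 to 102) in beta cells. Alpha and PP cells thus held Cox6a2 and insulin RNA in about the ratio of beta cells, with wide intervals. Delta cells stood at 48.7 (15.8 to 114) in the HFD and 134 (73.4 to 225) in the chow library, intervals that also hold the beta cell value.

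Among cells that met no hormone limit, 122 HFD and 173 chow cells carried at least 3 of the endothelial markers, and 69 HFD and 54 chow cells at least 3 of the macrophage markers. Endothelial-marker cells, which line blood vessels, held 0 Cox6a2 UMIs in the HFD library and 1 in the chow library. Macrophage-marker cells held 9 in the HFD library, or 10.1 CPM (4.63 to 19.2), and 7 in the chow library, or 13.3 CPM (5.33 to 27.3). Per 1000000 insulin UMIs this came to 610 (279 to 1158) in HFD and 648 (261 to 1336) in chow macrophage-marker cells, above the beta cell values in each library. After thinning to 4000 UMIs a Cox6a2 UMI was found in 4.35% of HFD (3 of 69, 0.906 to 12.2%) and 7.55% of chow macrophage-marker cells (4 of 53, 2.09 to 18.2%), and these intervals hold the shares of beta cells of the same library, 3.84% in HFD and 12.3% in chow. The Cox6a2 share of the pair there was 1.84% (0.843 to 3.46%) in HFD and 2.54% (1.03 to 5.16%) in chow. Of muscle markers, the striated muscle list summed to 7.50 CPM in HFD beta cells, with 6 of 8 detected and Tnnt3 and Myh4 at 0. In chow beta cells it summed to 8.04 CPM, with 5 of 8 detected and Myl1, Tnnt3 and Myh4 at 0. Cox6a2 itself had 13.9 CPM in HFD and 51.9 CPM in chow. Most of the list's sum was Acta1, with 5.37 CPM in HFD and 5.23 CPM in chow, and Mylpf, with 1.78 CPM in HFD and 2.29 CPM in chow. The smooth muscle list summed to 0.321 CPM in HFD and 0.178 CPM in chow beta cells, with 3 of 3 detected in both.

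Within beta cells Cox6a2 was uneven. With every cell thinned to 4000 UMIs, which left out 0 HFD and 24 chow beta cells, a Cox6a2 UMI was found in 3.84% of HFD beta cells (114 of 2968, Clopper-Pearson interval 3.18 to 4.60%) and in 12.3% of chow beta cells (535 of 4348, 11.3 to 13.3%). Without thinning the shares were 12.1% in HFD and 26.8% in chow. In alpha cells, with median depths of 10894.5 UMIs in HFD and 8368 in chow before thinning, it was found in 0 of 374 HFD cells, where 3 cells would be 0.802% and the Clopper-Pearson upper limit is 0.981% of cells with a UMI, and in 0.276% of chow cells (2 of 725, 0.0334 to 0.993%). Cells with at least 2 Cox6a2 UMIs after thinning made up 0.573% of HFD and 3.96% of chow beta cells, and the largest count in 1 cell was 3 in HFD and 11 in chow. The variance of the count over its mean was 1.30 in HFD and 2.04 in chow beta cells, where independent draws at an equal level give about 1. For the other 9 members that quantity lay between 1.04 for Cox7b and 1.18 for Cox6c in HFD beta cells, and between 1.06 for Cox6a1 and 1.21 for Cox6c in chow beta cells. Cox6a2 was thus the most uneven of the 10 members in both libraries by this measure. The 10 cells with the most Cox6a2 held 15.4% of its UMIs in HFD and 7.19% in chow beta cells, before thinning.

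The Cox6a2 difference was similar in beta cells of unlike insulin content. In cells with 20 to 40% insulin UMIs it had 13.4 CPM in HFD and 51.3 CPM in chow, in cells with 40 to 60% 14.6 CPM in HFD and 53.1 CPM in chow, and in cells with 60% or more 12.1 CPM in HFD and 44.7 CPM in chow. The share of the pair was 4.56%, 5.87% and 5.45% in HFD and 11.96%, 13.8% and 14.3% in chow, in the same order of bands. In none of the 3 bands did the intervals of the 2 libraries meet.

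The remaining comparison is HFD against chow for every subunit. Ratios are given as the log2 ratio of HFD over chow, with 0.5 counts added to each sum, minus the median of that ratio over the genes of the class with at least 50 summed counts. That median was 0.19 in beta cells. A negative value means lower in HFD, and past 1.5-fold means at least 1.5-fold from the median gene. In beta cells 10 of 10 members lay below the median gene, 6 of them past 1.5-fold, beside 9.07% of 12252 genes lower and 4.42% higher past 1.5-fold. Nothing is read from this count, since the members were chosen by this contrast. The median of the members was -0.69. In plain CPM, without the median, 4 of the 10 were past 1.5-fold lower, Cox4i1, Cox5a, Cox5b and Cox6a2, beside 4.72% of all genes lower and 10.2% higher, and the share of lower genes among all genes past 1.5-fold was 31.7%, against 67.3% with the median taken off.

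Cox4i1, Cox5a and Cox5b had the lowest ratios of the 9 members other than Cox6a2. Cox4i1, the main isoform of subunit 4, through which ATP can inhibit the enzyme, had 322 CPM (317 to 327) in HFD and 495 CPM (490 to 500) in chow beta cells, a relative ratio of -0.81. Cox5a, a subunit on the matrix side, had 60.6 CPM (58.5 to 62.8) in HFD and 127 CPM (124 to 130) in chow, with -1.26. Cox5b, a zinc-binding subunit also on the matrix side, had 155 CPM (152 to 159) in HFD and 274 CPM (270 to 278) in chow, with -1.01. All 3 were lower in HFD, and Cox5a was the lowest of the 10 after Cox6a2. The Poisson intervals of the 2 libraries did not meet for any of the 10 members, and no spread between animals is known against which to set these differences.

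The remaining widespread subunits differed less, and the muscle isoform Cox6a2 differed most. Cox6a2 had a relative ratio of -2.09 (-2.21 to -1.97) and Cox6a1 one of -0.68 (-0.72 to -0.65). Cox6b1, on the side of the intermembrane space, had 288 CPM in HFD and 359 CPM in chow beta cells, with -0.51. Cox6c, a small membrane subunit, had 456 CPM in HFD and 545 CPM in chow, with -0.45. These last 2 stayed within 1.5-fold of the median gene.
Cox7a2, the widespread isoform of subunit 7a, had 305 CPM in HFD and 433 CPM in chow beta cells, with -0.70. Cox7b, a further small membrane subunit, had 204 CPM in HFD and 251 CPM in chow, with -0.49. Cox8a, the widespread isoform of subunit 8 and the most abundant of the 10, had 715 CPM in HFD and 798 CPM in chow, with -0.35, the value nearest to the median gene. The members nearest to the 1.5-fold line were Cox6a1 inside it at -0.68 and Cox6b1 outside it at -0.51. Summed, the 10 members made up 2753 CPM in HFD and 3659 CPM in chow beta cells.

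**Figure D2:**
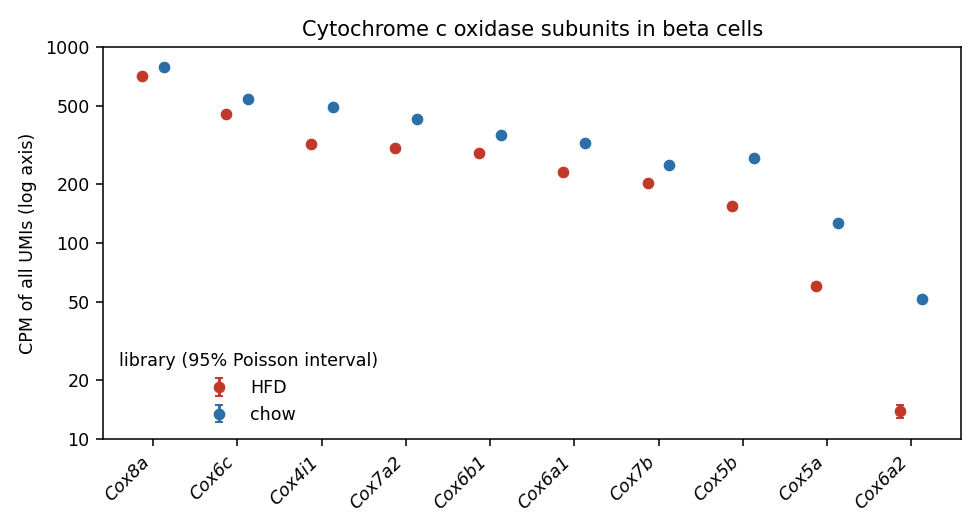
Level of the 10 subunit genes in beta cells, in CPM on a log axis, in the HFD and the chow library; bars are exact Poisson 95% intervals, mostly smaller than the points. HFD points lie below the chow points for all 10 genes, from Cox8a at 715 CPM in HFD and 798 CPM in chow to Cox6a2 at 13.9 CPM in HFD and 51.9 CPM in chow.

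The size of the difference varied with the insulin content of the cells for several members. In cells with 20 to 40% insulin UMIs 3 of 10 members were past 1.5-fold lower, beside 5.85% of genes; in cells with 40 to 60% it was 6 of 10, beside 10.4%; in cells with 60% or more it was 3 of 10, beside 8.3%. Cox5a had relative ratios of -0.76, -1.44 and -0.86 in the bands from low to high, and Cox5b had -0.66, -1.16 and -0.63. Cox8a had -0.41, -0.40 and -0.04, so that in the cells richest in insulin it lay next to the median gene. Cox6a2 had -2.05, -2.11 and -1.96, the most even of these series. Cox6b1 was about as even, with -0.43, -0.53 and -0.39.

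In the other endocrine types the members lay close to the median gene. Of the 9 members other than Cox6a2, which did not reach 50 summed counts outside beta cells, 0 were past 1.5-fold lower in alpha cells, beside 4.97% of genes, 0 in delta cells, beside 2.7%, 1 in PP cells, beside 4.7%, and 0 in cells that met no limit, beside 4.6%. Their medians were -0.11 in alpha, -0.16 in delta, -0.18 in PP cells and 0.04 in cells that met no limit, against -0.69 for the 10 in beta cells. Whether beta cells differ from the other classes was not tested.
Cox4i1 had 745 CPM (719 to 771) in HFD and 860 CPM (838 to 884) in chow alpha cells, a relative ratio of -0.20, and Cox5a had 99.0 CPM (89.7 to 109) in HFD and 114 CPM (105 to 122) in chow alpha cells, with -0.18. Cox5b had 413 CPM in HFD and 398 CPM in chow alpha cells, with 0.06. Cox5b, at -1.01 in beta cells, thus did not share that direction in alpha cells, where the interval of its ratio, -0.03 to 0.15, holds 0.
In delta cells the range ran from -0.41 for Cox5a, with 140 CPM in HFD and 175 CPM in chow, to 0.07 for Cox8a, with 1057 CPM in HFD and 952 CPM in chow. The sign of Cox6b1 (0.01) and Cox6c (0.02) in delta cells turned under some alternative settings. In PP cells Cox5a had 60.0 CPM (144 UMIs) in HFD and 87.1 CPM (255 UMIs) in chow, with -0.62 (-0.93 to -0.32). It was not past 1.5-fold in plain CPM, at -0.54, and stood at -0.11 with cells thinned to 4000 UMIs. Cox4i1 was below the median gene in each of the 5 classes, from -0.81 in beta cells to -0.18 in cells that met no limit.

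**Figure D3:**
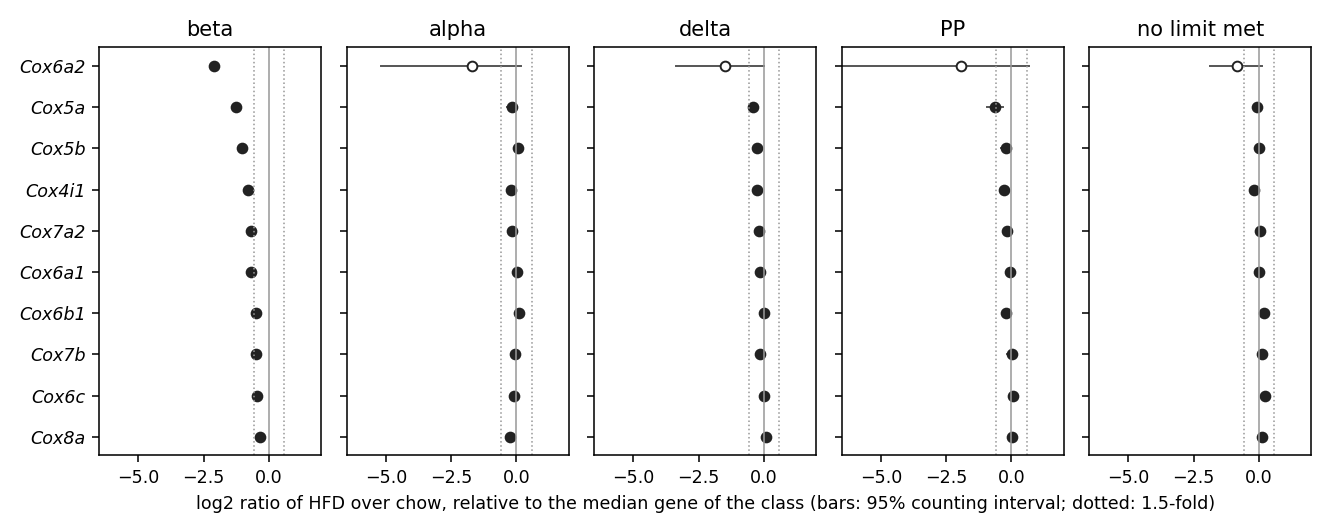
Log2 ratio of HFD over chow of each subunit, relative to the median gene, in the 5 cell classes; bars are 95% counting intervals, the grey line is the median gene, dotted lines mark 1.5-fold, and open points have under 50 summed counts. The beta cell points reach from -0.35 for Cox8a to -2.09 for Cox6a2, and the filled points of the other classes lie between -0.62 and 0.22; the Cox6a2 bar in PP cells runs off the axis.

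Beta cells of the 2 libraries did not fall into the same clusters in the same numbers. Clustering of all cells on 1994 variable genes gave 18 clusters. The members and the listed respiratory, assembly and regulator genes were left out of it. Hormone genes, Ppy among them, and the other cell type markers were not left out. Of these, 5 held at least 100 beta cells of each library, and these 5 hold 93.2% of HFD but 44.6% of chow beta cells. Most of the rest of the chow beta cells lay in 3 clusters, numbers 3, 4 and 9, which held 1.18%, 2.90% and 0.438% of HFD and 14.2%, 24.7% and 14.1% of chow beta cells. Comparing HFD with chow inside each of the 5 shared clusters was chosen after the data had been seen.
Members past 1.5-fold lower numbered 2, 1, 1, 3 and 6 in clusters 0, 1, 2, 5 and 6, beside 4.5%, 3.62%, 2.4%, 6.38% and 9.18% of genes. The medians of the 10 members were -0.39, -0.36, -0.31, -0.50 and -0.69. All 10 members were below the median gene in each of the 5 clusters, and their medians in clusters 0, 1, 2 and 5 were nearer to it than over all beta cells.
Cox6a2 was past 1.5-fold lower in 4 of the 5. In cluster 0, where it was highest, it had 27.0 CPM in HFD and 118 CPM in chow beta cells, with -2.19. In cluster 1 it had 10.7 CPM in HFD and 44.97 CPM in chow, with -2.04, and in cluster 2 it had 15.4 CPM in HFD and 49.2 CPM in chow, with -1.54. In cluster 6, where the metallothionein gene Mt1 was highest of the 5, it had 6.08 CPM in HFD and 31.4 CPM in chow, with -2.48 (-3.19 to -1.87). The exception among the 5 was cluster 5, whose beta cells carried much Ppy RNA, 8740 CPM in HFD and 8744 CPM in chow: there Cox6a2 had 7.03 CPM in HFD and 9.41 CPM in chow, with -0.53 (-1.09 to 0.04). In cluster 4, which held too few HFD cells for the comparison (86 against 1081 in chow), Cox6a2 had 38.9 CPM in HFD and 50.4 CPM in chow beta cells.
Cox5a was past 1.5-fold lower in 3 of the 5, Cox5b and Cox7a2 in 2, Cox4i1 and Cox6a1 in 1, and Cox6b1, Cox6c, Cox7b and Cox8a in none. In the chow-rich clusters 3, 4 and 9 the chow cells had 53.1, 50.4 and 63.5 CPM of Cox6a2 and 118, 127 and 179 CPM of Cox5a, while Cox5a reached 67.8 to 141 CPM in the chow cells of the 5 shared clusters. The heat shock gene Hspa1a, looked at after the clusters had been seen, had 1.88 to 13.6 CPM in HFD and 12.6 to 46.5 CPM in chow cells of the shared clusters, and 155, 24.0 and 114 CPM in chow cells of clusters 3, 4 and 9. Its part in the values of the members was not tested.

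**Figure D4:**
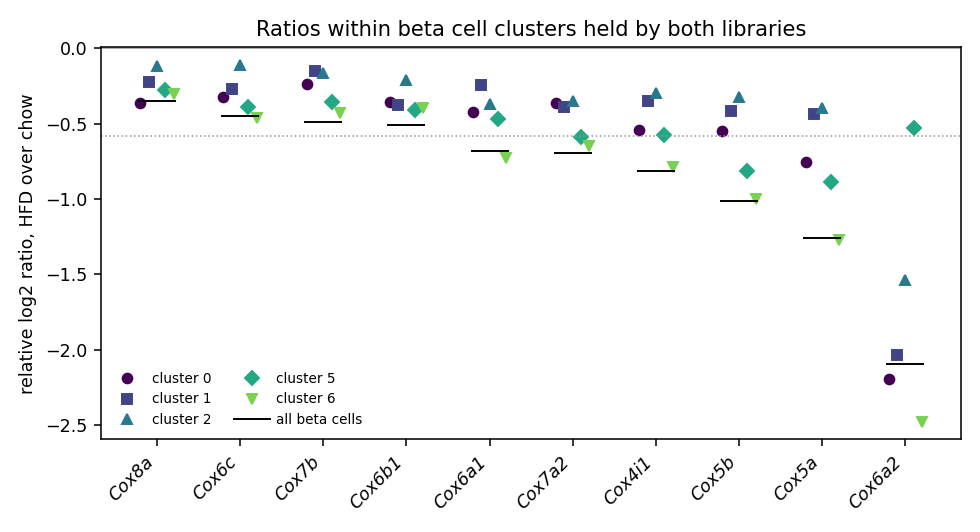
Relative log2 ratio of HFD over chow of each subunit in beta cells of the 5 clusters shared by both libraries; each symbol is 1 cluster, black bars give the value over all beta cells and the dotted line marks 1.5-fold lower. Points lie below 0 for all 10 genes, and those of Cox6a2 spread from -2.48 in cluster 6 to -0.53 in cluster 5.

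Between classes, the order of the levels depends on the denominator, since the hormone genes took 60.2% of the UMIs of HFD and 60.7% of those of chow beta cells. In alpha cells they took 31.0% in HFD and 28.9% in chow, and in cells that met no limit 6.00% in HFD and 6.98% in chow. On the scale of UMIs per 1000000 outside hormone genes, the 10 members summed to 6917 in HFD and 9323 in chow beta cells. The sums were 7434 in HFD and 7810 in chow alpha cells, 7300 in HFD and 7820 in chow delta cells, 6012 in HFD and 6593 in chow PP cells, and 5831 in HFD and 5820 in chow cells that met no limit. Beta cells thus came after alpha and delta cells in the HFD library and first of the 5 classes in the chow library.
On this scale Cox6a2 stood at 35.0 in HFD and 132 in chow beta cells, and at 0.694 to 1.88 in HFD and 2.68 to 5.51 in chow alpha, delta and PP cells, sums of so few UMIs that no fold is given. Cox8a and Cox7b were highest in beta cells in both libraries too, but Cox8a exceeded the mean of the other endocrine types by 1.33-fold in HFD and 1.46-fold in chow, and Cox7b by 1.10-fold in HFD and 1.32-fold in chow. Cox5a was highest in cells that met no limit, at 505 in HFD and 538 in chow, against 152 in HFD and 324 in chow beta cells. It stood at 144 in HFD and 160 in chow alpha cells, 198 in HFD and 262 in chow delta cells, and 132 in HFD and 205 in chow PP cells. In cells that met no limit its ratio of HFD over chow was -0.06 (-0.16 to 0.05) relative to the median gene. Cox4i1 was lowest of the 5 classes in beta cells of the HFD library, at 810, while in the chow library beta cells at 1261 were second after delta cells at 1385. Cox5b was lowest in HFD beta cells too, at 390, and highest in chow beta cells, at 697.

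**Figure D5:**
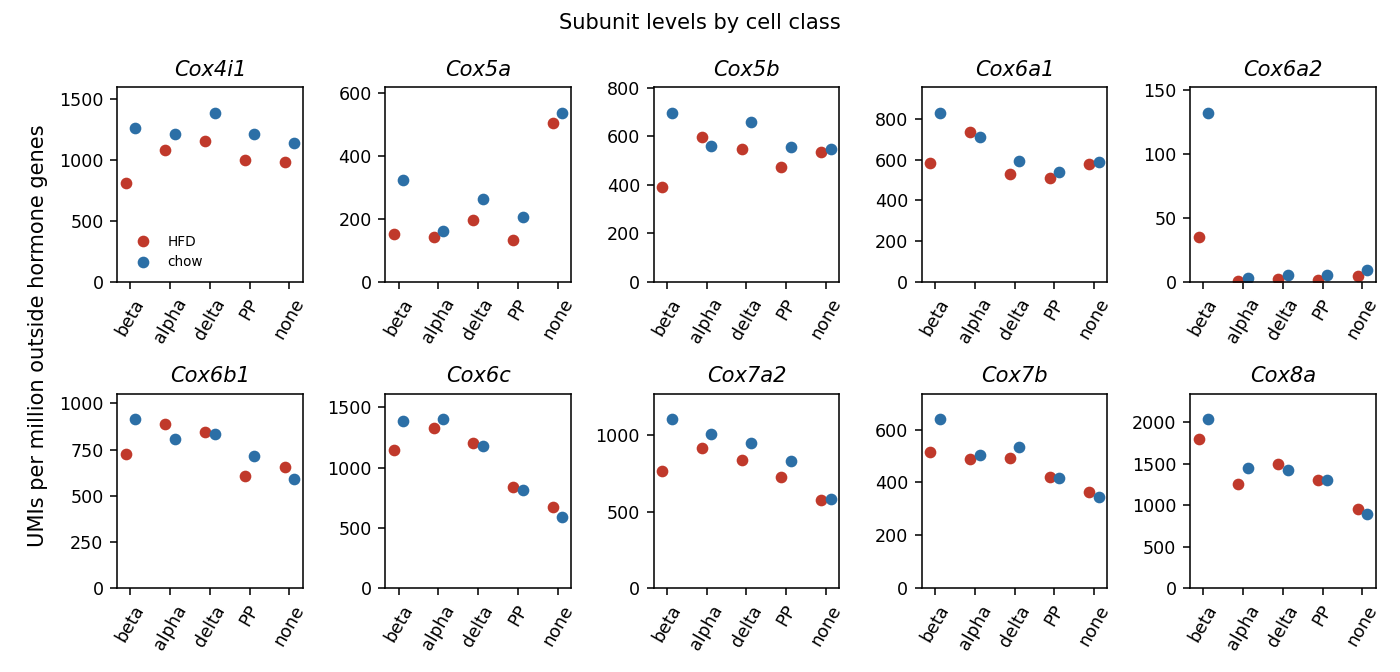
Level of each subunit in UMIs per 1000000 UMIs outside hormone genes, by cell class, in the HFD and the chow library; "none" stands for cells that met no hormone limit, and each panel has its own axis from 0. Cox6a2 stands at 35.0 in HFD and 132 in chow beta cells and below 10 elsewhere, and Cox5a is highest in cells that met no limit, at 505 in HFD and 538 in chow.

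Each of the other members was found in more beta cells than Cox6a2 was. After thinning, Cox8a was found in 93.4% of HFD and 95.4% of chow beta cells, Cox4i1 in 69.7% of HFD and 83.0% of chow, Cox5b in 42.7% of HFD and 61.5% of chow, and Cox5a in 18.9% of HFD and 36.2% of chow beta cells. Unthinned, Cox5a was found in 54.3% of HFD and 72.9% of chow beta cells. Across beta cells the 45 pairs of members had Pearson correlations with a median of 0.04 in HFD (n = 2968 cells) and 0.03 in chow (n = 4348 cells) on thinned log counts, too weak in such sparse counts to describe a relation. Cells of 1 library share its preparation.

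The other genes of complex IV did not all go the way of the members in beta cells. Of 12 further subunit genes, 8 reached 50 summed counts and 1 was past 1.5-fold lower, beside 9.07% of all genes: Ndufa4, first described in complex I and now counted as a complex IV subunit, with 209 CPM in HFD and 308 CPM in chow, at -0.75. Cox7c, a small membrane subunit, had 293 CPM in HFD and 355 CPM in chow, at -0.47. The mitochondrial genes of the core stayed near the median gene: mt-Co1 had 6446 CPM in HFD and 5439 CPM in chow, at 0.05, mt-Co2 had 3046 CPM in HFD and 2968 CPM in chow, at -0.16, and mt-Co3 had 7497 CPM in HFD and 7075 CPM in chow, at -0.11. The 3 core genes summed to 6.17 times the 10 members in HFD and 4.23 times in chow beta cells, and to 2.83 times in HFD and 3.02 times in chow alpha cells. The factor was 2.76 in HFD and 2.40 in chow delta cells, and 4.22 in HFD and 3.62 in chow PP cells, so of these 4 classes it was lower in HFD in alpha cells alone. Cox7a2l, whose protein has been linked to the joining of complexes III and IV into supercomplexes, was higher. It had 508 CPM in HFD and 344 CPM in chow beta cells, at 0.37. Its ratio was -0.30 (-0.39 to -0.21) in alpha, 0.18 (0.09 to 0.28) in delta and -0.09 (-0.22 to 0.04) in PP cells. Neither its protein nor that role in this strain was measured here. Muscle and testis isoforms were scarce: the heart and muscle form Cox7a1 had 51 UMIs in HFD and 45 in chow beta cells, and Cox8b had 0 in both, where 3 counts would be 0.0601 CPM in HFD and 0.0446 CPM in chow. The testis forms Cox6b2, Cox7b2 and Cox8c had 24, 14 and 1 UMIs in HFD and 26, 10 and 0 in chow beta cells. Cox6a2 was thus the only muscle isoform of the list above 2 CPM in beta cells of either library.

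Of 26 assembly factors of complex IV, 25 reached 50 summed counts in beta cells, with a median of -0.35, and 3 were past 1.5-fold lower, beside 9.07% of all genes: Cox18 at -0.74, Sco2 at -0.63 and Higd1a at -0.60, each under 10 CPM. The most abundant, the copper carrier Cox17, had 167 CPM in HFD and 193 CPM in chow, at -0.41. Cytochrome c (Cycs), the electron donor of the complex, had 76.5 CPM in HFD and 112 CPM in chow, at -0.74.
The counts for the other complexes stand beside the same 9.07% of genes lower in beta cells. In complex I 26 of 36 genes were past 1.5-fold lower, with a median of -0.79, led by Ndufb6 at -1.23 and Ndufc2 at -1.20. In complex III it was 5 of 9, with a median of -0.64, led by Uqcrb at -1.11. In ATP synthase it was 11 of 16, with a median of -0.64, led by Atp5g1 at -1.11, and in complex II 1 of 4, Sdhb, with a median of -0.27. The median of the 10 members, -0.69, lies within the span of the medians of these lists. In plain CPM, without the median, fewer genes of each of these lists were past 1.5-fold lower, as with the members. In alpha cells 0 of the 36 complex I genes, 0 of 9 in complex III and 0 of 16 in ATP synthase were past 1.5-fold lower, beside 4.97% of all genes, with medians of 0.05, 0.07 and 0.09. Delta cells had 0, 0 and 0 in the same order, beside 2.7% of all genes, with medians of -0.12, -0.18 and -0.14. PP cells had 0, 0 and 1 (Atp5b), beside 4.7%, with medians of -0.17, -0.15 and -0.20. Medians in delta and PP cells thus lay below the median gene, nearer to it than in beta cells.
Of 9 regulators of respiratory genes, 0 were past 1.5-fold lower, beside 9.07% of all genes, and 1 was past 1.5-fold higher in beta cells, beside 4.42%. The gene was Ppargc1a, a coactivator of mitochondrial genes. It had 141 UMIs, or 2.83 CPM, in HFD and 65 UMIs, or 0.966 CPM, in chow beta cells, at 1.35. Nrf1 stood at -0.05, Gabpa at 0.02 and Tfam, the main transcription factor of mitochondrial DNA, at -0.22.

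Genes whose level followed that of Cox6a2 were ranked in 2 ways. Over the 10 sums of 5 classes by 2 libraries, on log2(CPM + 1), the 5 highest Pearson correlations among 6984 genes were those of Fam151a (0.96), Gng12 (0.94), Ucn3 (0.93), Trpm5 (0.92) and Dnajc24 (0.92). Fam151a had 38.6 CPM in HFD and 63.9 CPM in chow beta cells and 2.87 to 10.3 CPM in the other sums. Ucn3, a peptide hormone gene and marker of mature beta cells, had 218 CPM in HFD and 252 CPM in chow beta cells and 4.58 to 23.0 CPM elsewhere. These sums share their libraries, and insulin UMIs were found in each class. Across single beta cells, Prss53, Prlr, G6pc2, Pdyn, Uqcrq, Atf5 and Ero1lb were among the 8 genes of 4529 with the highest correlations in the chow library. Their values were 0.03 to 0.10 in HFD (n = 2968 cells) and 0.12 to 0.13 in chow beta cells (n = 4348 cells), too weak in such counts to describe a relation. The correlation of Cox6a2 with Cox6a1 was 0.05 in HFD and 0.03 in chow beta cells.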

How the data were processed

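Islet cells were profiled in 1 HFD and 1 chow library with the 10x Genomics 3′ v2 chemistry. The authors deposited raw UMI counts, 1 matrix of genes by barcodes per library. The submitters' processing notes name Cell Ranger 2.1.0. How barcodes were kept as cells, the build and the annotation: not given in the sources used here. The smallest barcode held 4017 UMIs in the HFD and 3846 in the chow library. From these counts, 145 HFD and 122 chow barcodes with fewer than 500 detected genes or more than 10% mitochondrial UMIs were taken out. Scrublet in scanpy 1.11.5 marked 0.0228% of HFD and 0.0470% of chow barcodes by its own threshold and so had not worked; the barcodes with the top 5% of scores were taken out instead, 194 in HFD and 278 in chow, with ties kept. Of the beta cells kept, 33 in HFD and 24 in chow also met the limit of another hormone.

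Counts were summed per class and library and given as CPM with exact Poisson 95% intervals, and log2 ratios used 0.5 added counts and the median over genes with at least 50 summed counts. Intervals of a ratio are those of the split of the 2 counts, and all intervals cover counting error only. A count of 0 was given the limit of 3 counts. The ratio step was tested on simulated counts. Members named in the text are all 10; of the other lists, genes past 1.5-fold (at most 5) and the 3 most abundant are eligible, and the genes most like Cox6a2 are the 8 with the highest correlation across chow beta cells and the 5 over the class sums, without predicted genes; 1 of the 8 is not reported here. Some genes outside this rule (Cox7a2l, Cox7c, Cox7a1, Cox8b, Nrf1, Gabpa, Hspa1a, Mt1, Ppy and Gm26631) were named after their values were seen. The members and lists were chosen with earlier results of these data known.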

Additional observations from a re-analysis of the deposited data

Results flagged for a closer look

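Cox6b1 lay below the median gene in HFD against chow beta cells, at -0.51, and above it in alpha cells, at 0.10 (0.03 to 0.18), a difference of -0.61 on the log2 scale. It had 288 CPM in HFD and 359 CPM in chow beta cells, and 611 CPM in HFD and 573 CPM in chow alpha cells. The sign in alpha cells held under each of the 12 other settings, of which the change of denominator cannot move a ratio. Cox8a lay below the median gene in beta cells, at -0.35, and above it in delta cells, at 0.07 (0.00186 to 0.133), a difference of -0.42. It had 715 CPM in HFD and 798 CPM in chow beta cells, and 1057 CPM in HFD and 952 CPM in chow delta cells. With 1 library per diet, the sole sample of a diet in one cell type moved the opposite way from that in the other, and neither difference was tested.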

How the results depend on the processing

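The count of members past 1.5-fold lower in HFD beta cells was 6, beside 9.07% of all genes. It stayed at 6 under 11 of 12 other settings of cell removal, hormone limits, depth, centring, denominator, added counts, filter and cell weighting. The share of all genes lower was 8.22 to 16.2% under these 11, the highest with the filter of at least 1 count. In plain CPM the count was 4, beside 4.72% of genes. The denominator cancels once the median is taken off, so that setting could not change a ratio in any class. Added counts could hardly move sums as large as those of the members in beta cells. With 2-fold in place of 1.5-fold the count was 3, beside 2.27% of genes. Inside clusters 0, 1, 2 and 5 it was 2, 1, 1 and 3, beside 4.5%, 3.62%, 2.4% and 6.38% of genes. In cluster 6 it was 6, beside 9.18%. The cause was not tested. The 10 ratios kept their sign in all 120 values over those 12 settings, and 18 values moved past the counting interval, 10 of them in plain CPM. Cox6a2 stayed between -2.24 and -1.90 and Cox8a between -0.39 and -0.16. The Cox6a2 share of the pair was 4.78% in HFD and 12.9% in chow with cells thinned to 4000 UMIs and within its counting interval under the 4 other settings; the cause was not tested. In alpha cells all 108 values kept their sign, in delta cells 100 of 108 and in PP cells 98 of 108, the turned ones being small. No paired analysis was possible because each diet has 1 library, and for the same reason no replicate could be left out. Outside beta cells Cox6a2 had at most 25 UMIs in a class, too few for a ratio between diets, and diet cannot be told apart from library.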
